A study of Homo sapiens with 6 samples.

Results

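The telomerase and shelterin genes were examined for open chromatin in human beta-like cells. The group held 10 genes: TERT, NHP2 and TEP1 of the telomerase particle, TERF1, TERF2, TERF2IP, POT1, TINF2 and ACD of shelterin, and RTEL1, a helicase of the chromosome end. A region was placed with a gene as a promoter region when it overlapped the 2 kb on either side of a protein-coding transcript start of that gene. It was placed as a distal region when its midpoint lay nearest to a start of that gene, within 100 kb, and it overlapped no promoter window. By this rule 22 of the 108542 accessible regions belonged to the 10 genes, 11 as promoter and 11 as distal regions, against 20094 promoter regions and 88448 others in the whole data set.

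Accessibility had been measured by ATAC-seq, in which the Tn5 transposase inserts sequencing adaptors into open chromatin, in 6 libraries of 100000 cells each. Of these, 3 came from non-senescent EndoC-βH3 cells and 3 from senescent EndoC-βH3 cells, which had received 4-hydroxytamoxifen (4-OHT) for 3 weeks. EndoC-βH3 is a single line from a fetal human pancreas, immortalised with hTERT and the SV40 Large-T-antigen, and 4-OHT activates a CreER that cuts both transgenes out. All libraries carried the genotype label WT and the cell type label pancreatic beta cells. The value used for each region was the mean signal that the authors deposited, a mean over all 6 libraries of read counts scaled by DESeq2 size factors. It holds senescent and non-senescent cells together, so the levels below describe the line as a whole, carry no spread between libraries and do not compare the groups. Since a wide region collects more reads, levels were expressed as mean signal per kb of region, and the promoter level of a gene was that of its promoter region with the highest mean signal.

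Telomeres are tandem TTAGGG repeats that cap chromosome ends. Telomerase extends them with its reverse transcriptase TERT, copying an RNA template held in a particle that contains NHP2, while shelterin coats the repeats and keeps the end from being read as a DNA break. Most adult somatic cells transcribe little or no TERT, whereas shelterin genes are transcribed in nearly all cells.

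All 10 genes had a promoter region, as did 15493 of 19663 protein-coding genes (78.8%). Their promoter levels ran from 567 per kb at TERT to 2193 per kb at POT1, a 3.87-fold range, with a median of 1202 per kb. The median over all genes with a promoter region was 686 per kb, with quartiles of 359 and 1120 per kb. Of the 10 genes, 9 lay above the median gene, 5 above the upper quartile and 1, POT1, above the 90th percentile of 1662 per kb. TERT was the one gene below the median. With a single mean per region, it could not be tested which neighbours in this order differed, and some were close: TERF1 exceeded TINF2 by 1.01-fold and TERF2 exceeded TERF2IP by 1.03-fold. The order depended on the scaling by length. Taken as mean signal alone, TERT moved from the 41.2 to the 50.4 percentile of genes, and TERF2, which had the narrowest promoter region, moved from the 71.5 to the 34.4 percentile. POT1 moved from the 95.7 to the 79.2 percentile, below ACD at 94.2, TINF2 at 90.9 and TERF1 at 79.7, and RTEL1 moved from the 56.7 to the 66.9 percentile.

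**Figure D1:**
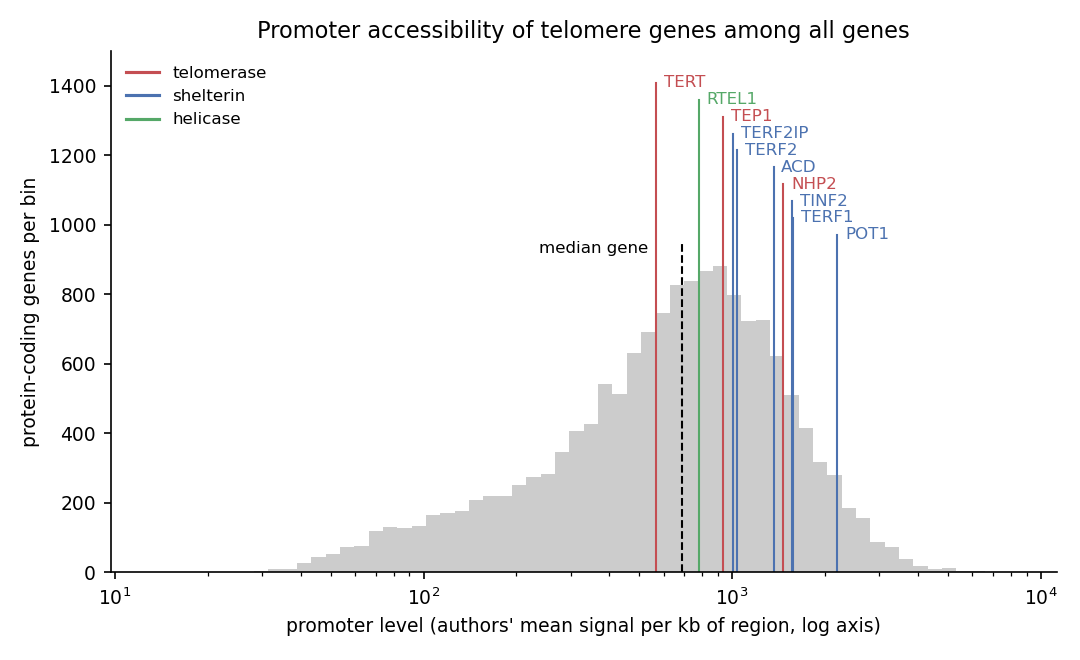
Histogram of promoter level (authors' mean signal per kb of region, log axis) over 15493 protein-coding genes, with the number of genes per bin on the y axis and a coloured line at each telomerase, shelterin or helicase gene (line heights only separate the names). The dashed line is the median gene at 686 per kb. TERT lies to its left at 567 per kb and POT1 farthest to the right at 2193 per kb.

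TERT, the catalytic subunit of telomerase, had the lowest promoter level and the most unusual promoter region of the 10. Its region, chr5:1293454-1294949 (hg38), had a mean signal of 849 over 1496 bp, 567 per kb. It did not reach the transcript start at position 1295068 on the minus strand but began 119 bp inside the gene. It covered 179 of the 298 bp of exon 1, all 104 bp of intron 1 and 1213 of the 1354 bp of exon 2, and the 1392 exonic bp were all coding. None of the 2 annotated starts of protein-coding TERT transcripts lay in a region. Counts of starts covered in the other genes likewise include protein-coding transcripts only. By contrast, the strongest promoter region covered the canonical start in the 9 other genes and in 12071 of 15488 genes (77.9%). The 3417 genes whose strongest region missed the canonical start had a median of 413 per kb, against 746 per kb where it was covered, and TERT stood at the 60.2 percentile among the former. The GC content of the TERT region, 72.7%, was at the 95.3 percentile of genes.

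The hTERT transgene of the non-senescent cells holds TERT coding sequence. Reads from it could align to the exons of the endogenous gene, so the 2 sources cannot be told apart in exons 1 and 2. The TERT promoter level, its rank and its percentiles may therefore include transgene reads. Exons 3 to 16, 2387 bp in all, overlapped no region. Of these, exons 3 to 15 were each 62 to 196 bp long and exon 16 was 665 bp long. The source of the signal was not tested.

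The bases before the TERT start are shown because no region covered them. They are given 5′ to 3′ from the RefSeq promoter sequence on hg38 (chr5:1295069-1295318, minus strand), with the E-box CACGTG, a site for MYC-type factors, and GC boxes (GGGCGG or its complement), sites for SP1-type factors, in capitals.
TERT promoter: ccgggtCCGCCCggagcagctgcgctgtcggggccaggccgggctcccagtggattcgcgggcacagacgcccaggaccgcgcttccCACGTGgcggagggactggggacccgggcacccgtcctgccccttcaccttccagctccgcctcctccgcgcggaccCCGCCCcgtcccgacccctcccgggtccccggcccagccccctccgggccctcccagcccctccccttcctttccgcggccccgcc

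This stretch held 1 E-box and 2 GC boxes, with a GC content of 78.8%. The absence of a region here means only that none was found at the threshold of the authors, not that the chromatin was closed.

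NHP2, an H/ACA protein of the telomerase particle that is also part of small nucleolar particles, had a promoter level of 1464 per kb, the 85.9 percentile. Its region, chr5:178153554-178154341, had a mean signal of 1153 over 788 bp, spanned the start and covered all 4 annotated starts. TEP1, a telomerase-associated protein that also sits in vault particles, reached 938 per kb, the 66.5 percentile, from a mean signal of 1048 over 1118 bp (chr14:20412725-20413842). TEP1 had the lowest ratio of observed to expected CpG among the strongest promoter regions of the 10 genes, 0.564, while the highest was 0.991 at TERF2. The median over the 10 genes was 0.831, against 0.749 over all genes, and the corresponding GC contents were 63.4% and 62.9%.

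The bases before the outermost starts of NHP2 (chr5:178153895-178154135, minus strand) and TEP1 (chr14:20413502-20413751, minus strand) are shown as the covered counterparts of the TERT sequence, with GC boxes and CCAAT boxes (CCAAT or its complement), sites for NF-Y, in capitals.
NHP2 promoter: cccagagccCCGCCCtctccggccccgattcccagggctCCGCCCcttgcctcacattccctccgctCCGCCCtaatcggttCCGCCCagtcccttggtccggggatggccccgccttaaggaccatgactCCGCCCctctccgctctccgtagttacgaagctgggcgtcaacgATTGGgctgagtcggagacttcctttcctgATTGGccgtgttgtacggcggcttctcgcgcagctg
TEP1 promoter: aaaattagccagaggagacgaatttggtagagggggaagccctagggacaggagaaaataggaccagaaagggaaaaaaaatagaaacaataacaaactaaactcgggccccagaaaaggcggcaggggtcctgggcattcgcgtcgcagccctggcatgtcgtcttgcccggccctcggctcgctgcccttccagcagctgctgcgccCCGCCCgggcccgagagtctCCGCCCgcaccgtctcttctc

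NHP2 held 5 GC boxes and 2 CCAAT boxes in these bases, and TEP1 held 2 GC boxes and no CCAAT box.

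Among the shelterin genes, POT1 had the highest level. POT1 binds the single-stranded end of the telomere, and its region, chr7:124929495-124930200, held a mean signal of 1548 in only 706 bp, 2193 per kb or 3.20 times the median gene. Per kb, 662 genes had a higher level, while the undivided mean signal of POT1 was lower than those of ACD, TINF2 and TERF1. The region covered all 9 annotated POT1 starts. TERF1, which binds double-stranded repeats and restrains telomere elongation, had 1563 over 990 bp, 1578 per kb, at chr8:73008387-73009376. TINF2, the bridge between the double-strand binding proteins and the rest of shelterin, had 2170 over 1384 bp, 1568 per kb, at chr14:24242041-24243424, and all 10 of its starts were covered. ACD, also known as TPP1, recruits telomerase and tethers POT1. It had the highest mean signal of the 10 genes, 2507, over the widest promoter region, 1840 bp (chr16:67659687-67661526), which gave 1362 per kb, the 83.3 percentile. The ACD region extended over exons 1 to 3.

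TERF2 and TERF2IP had the lowest promoter levels of shelterin, though both exceeded the median gene. Of all genes with a promoter region, 69.6% had a single one. TERF2, which folds the end into a protective loop, was the only one of the 10 genes with 2 promoter regions. The stronger, chr16:69385756-69386296, had 563 over 541 bp, 1041 per kb, and covered 2 of 8 annotated starts. The weaker, chr16:69373062-69373309, had 56.5 over 248 bp, 228 per kb, and lay inside the gene with its midpoint 903 bp from another start, which it did not cover. TERF2IP, the RAP1 partner of TERF2, had 1370 over 1356 bp, 1010 per kb, at chr16:75647403-75648758, the 70.2 percentile.

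The bases before the outermost starts of POT1 (chr7:124929984-124930075, minus strand) and TINF2 (chr14:24242664-24242924, minus strand) are shown for the highest promoter level and for a promoter with every start covered, with GC boxes and CCAAT boxes in capitals.
POT1 promoter: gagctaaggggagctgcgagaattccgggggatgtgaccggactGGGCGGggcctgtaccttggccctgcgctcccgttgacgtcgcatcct
TINF2 promoter: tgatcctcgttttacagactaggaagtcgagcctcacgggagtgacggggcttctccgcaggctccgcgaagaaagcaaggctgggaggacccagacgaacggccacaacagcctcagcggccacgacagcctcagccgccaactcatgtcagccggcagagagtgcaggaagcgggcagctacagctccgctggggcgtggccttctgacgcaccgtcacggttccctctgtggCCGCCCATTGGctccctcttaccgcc

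POT1 held 1 GC box in these 92 bases, and in TINF2 the single GC box and the single CCAAT box adjoined each other near the start.

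RTEL1, a helicase that unwinds telomere loops and G-quadruplexes, had 1189 over 1526 bp, 779 per kb, at chr20:63657544-63659069. This was the 56.7 percentile, the second lowest level after TERT. Its undivided mean signal, however, exceeded those of TERF2, TERT, TEP1 and NHP2. RTEL1 lay 748 kb and TERT 1253 kb from a chromosome end.

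**Figure D2:**
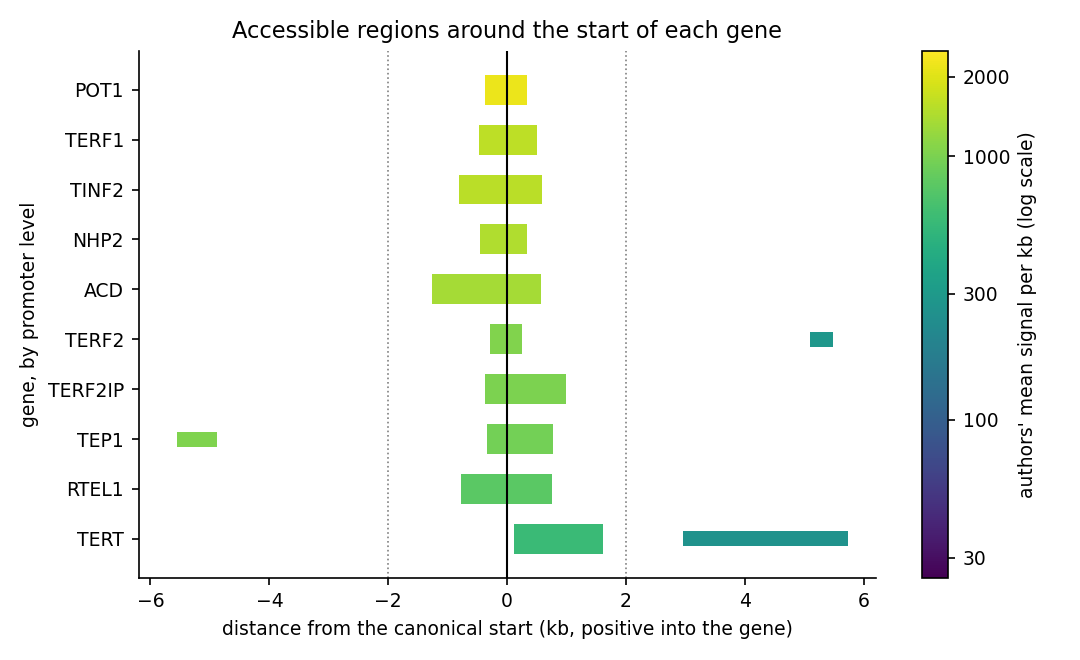
Accessible regions around the canonical start of each gene, drawn to scale against distance in kb (positive into the gene); thick bars are promoter regions, thin bars distal regions, dotted lines mark 2 kb, and colour gives the authors' mean signal per kb on a log scale. In 9 genes a promoter region spans the start, and at TERT it begins 119 bp inside the gene, followed by the wide region of intron 2.

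Several promoter regions served another gene as well. TERF2IP shared its region with KARS1, a lysyl-tRNA synthetase on the opposite strand whose start lay 108 bp away. ACD shared its region with PARD6A, a cell polarity gene 700 bp away on the opposite strand. RTEL1 shared its region with an alternative start of STMN3, a stathmin family gene whose canonical start was 4888 bp away. A promoter region was shared with another protein-coding gene by 3 of the 10 genes and by 22.9% of all genes. In addition, opposite-strand long noncoding RNAs started inside the regions of POT1 (POT1-AS1, 118 bp from the POT1 start), NHP2 (ENSG00000289726, 163 bp) and TINF2 (ENSG00000289979, 222 bp). The signal of these 6 regions cannot be divided between the genes on either side.

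The promoter table of RefSeq held 300 bases around the start (250 before and 50 after) for 8 of the 10 genes, in 10 entries. The entries of TINF2 overlapped, so a match in their shared bases was counted in each of them. GC boxes occurred in 9 of the 10 entries and in 56.8% of 21574 protein-coding promoters of the same length. The ETS core CCGGAAG occurred in 4 entries, both of TINF2 and one each of TERF2IP and RTEL1, against 12.9% of all. CCAAT boxes occurred in 3 entries (34.8% of all), and the E-box in 1, that of TERT (8.35% of all). The YY1 core ATGGCGGC occurred in TERF2IP alone (3.97% of all). No entry held the TATA box TATAAA, the NRF1 core GCATGCGC or the E2F cores TTTCGCGC and TTTGGCGC, found in 9.46%, 3.73% and 1.52% of all promoters. Both strands were searched in each case. These are matches of letters and not binding sites.

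The distal regions were unevenly spread over the genes. TERT had 3, TERF1, TEP1 and NHP2 had 2 each, and TERF2 and POT1 had 1 each. TINF2, ACD, RTEL1 and TERF2IP had none, as did 32.9% of protein-coding genes. The median gene had 1 distal region, and 35.9% of genes had 3 or more. These counts rest on distances to protein-coding starts, and with noncoding starts included 4 distal regions were left in place of 11. The 11 distal regions had a median of 544 per kb, against 168 per kb over all distal regions and 187 per kb over those within 100 kb of a start. Of the 11, 8 exceeded the median distal region, while 3 had a mean signal under 50. Over all distal regions the mean signal had a lower quartile of 34.4 and a median of 76.8. The gene nearest to a distal region is a matter of distance and need not be the gene it acts on.

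**Figure D3:**
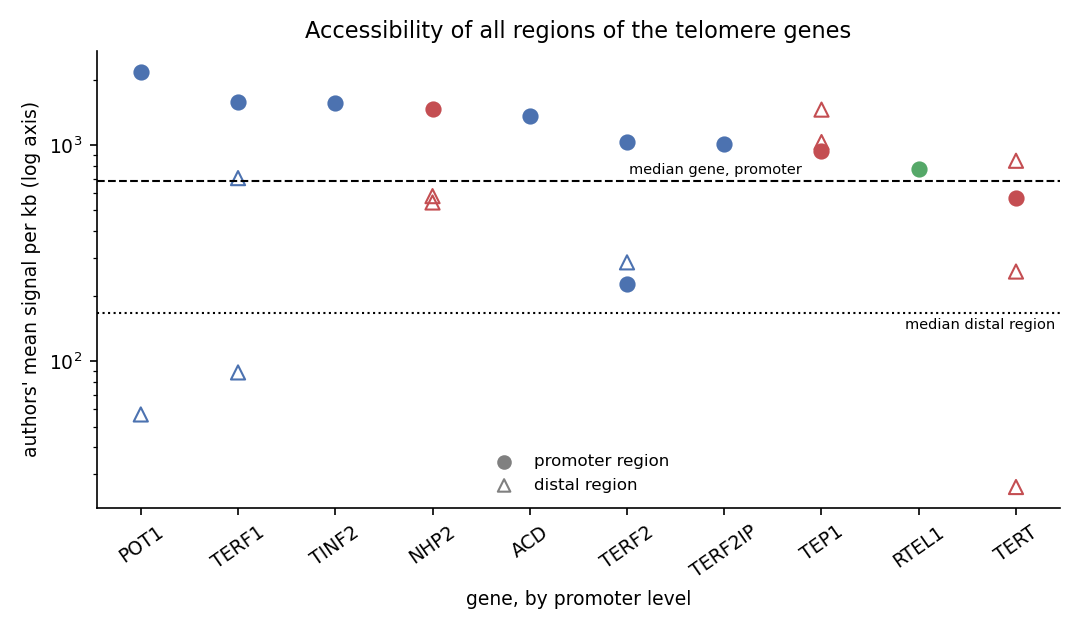
Authors' mean signal per kb (log axis) of each of the 22 regions, by gene in order of promoter level, with filled circles for promoter and open triangles for distal regions, coloured red for telomerase, blue for shelterin and green for the helicase. At TEP1 and TERT the strongest distal region lies above the strongest promoter region, while POT1 pairs the highest promoter level, 2193 per kb, with a distal region of 56.9 per kb.

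At TERT and TEP1 the distal region with the highest mean signal exceeded the promoter level per kb, by 1.49-fold and 1.56-fold. The ratio was above 1 in 37.2% of the 11004 genes with regions of both kinds, and its median was 0.657. It was 0.447 at TERF1, 0.371 at NHP2, 0.276 at TERF2 and 0.0259 at POT1. The TEP1 excess depended on the scaling by length. Undivided, its distal region had a mean signal of 982, below the 1048 of its promoter region. At TERT the undivided values were 1108 and 849. The TERT ratio rests on a promoter region that is mostly coding exon and may include transgene reads, and their share was not tested.

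The strongest distal region of TERT, chr5:1315522-1316828, lay 21106 bp upstream of the start between TERT and CLPTM1L, ending 924 bp short of the annotated body of CLPTM1L. Its mean signal was 1108 over 1307 bp, 848 per kb, the 94.1 percentile of distal regions. The other 2 lay in intron 2 of TERT. The one nearer to the start, chr5:1289329-1292105, was 2777 bp wide with a mean signal of 724, at the 94.6 percentile of distal regions, but 261 per kb, at the 68.3 percentile. The one farther in, chr5:1283432-1285102, had a mean signal of 43.9 over 1671 bp, 26.3 per kb, at the 6.91 percentile.

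Both intron 2 regions were tandem repeats. When the sequence of the wide region was shifted against itself by 42 bp, 83.1% of bases matched, against a median of 28.2% over shifts of 10 to 100 bp. In the weaker region 62.5% of bases matched at a shift of 61 bp, against a median of 30.2%. A match of at least 50% at some shift was found in 1608 of all regions (1.48%) and in 1.73% of distal regions. Distal regions of this kind had a median of 41.9 per kb, and among them the wide TERT region stood at the 86.1 percentile per kb and the weaker one at the 31.8 percentile.

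The first units of both repeats are shown because the E-box recurs in one and not in the other. They are given on the plus strand of hg38, the first at chr5:1289329-1289538 with the E-boxes CACGTG in capitals, the second at chr5:1283432-1283614 with the middle one of 3 units in capitals.
TERT 42-bp repeat: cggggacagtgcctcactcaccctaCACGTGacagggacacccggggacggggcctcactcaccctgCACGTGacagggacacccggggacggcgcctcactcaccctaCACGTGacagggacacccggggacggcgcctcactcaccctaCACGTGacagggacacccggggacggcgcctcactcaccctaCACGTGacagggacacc
TERT 61-bp repeat: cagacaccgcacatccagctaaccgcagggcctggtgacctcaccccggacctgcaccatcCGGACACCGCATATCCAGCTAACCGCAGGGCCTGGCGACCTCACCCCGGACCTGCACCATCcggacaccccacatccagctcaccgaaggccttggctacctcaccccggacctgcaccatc

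The wide region held 44 E-boxes over 2399 bp, or 86.4% of its length, and 34 of the 43 gaps between successive E-boxes were exactly 42 bp. Another 8 gaps were larger multiples of 42 bp. This came to 15.8 E-boxes per kb, and only 1 other region of the 108542 held more E-boxes. The E-box occurred in 9.45% of distal regions, and 20 regions held 10 or more. The weaker repeat held none. Tandem repeats vary in copy number between genomes. The number of copies in EndoC-βH3 and the placement of reads among repeat units were not measured, and their part in the signal of both regions was not tested.

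**Figure D4:**
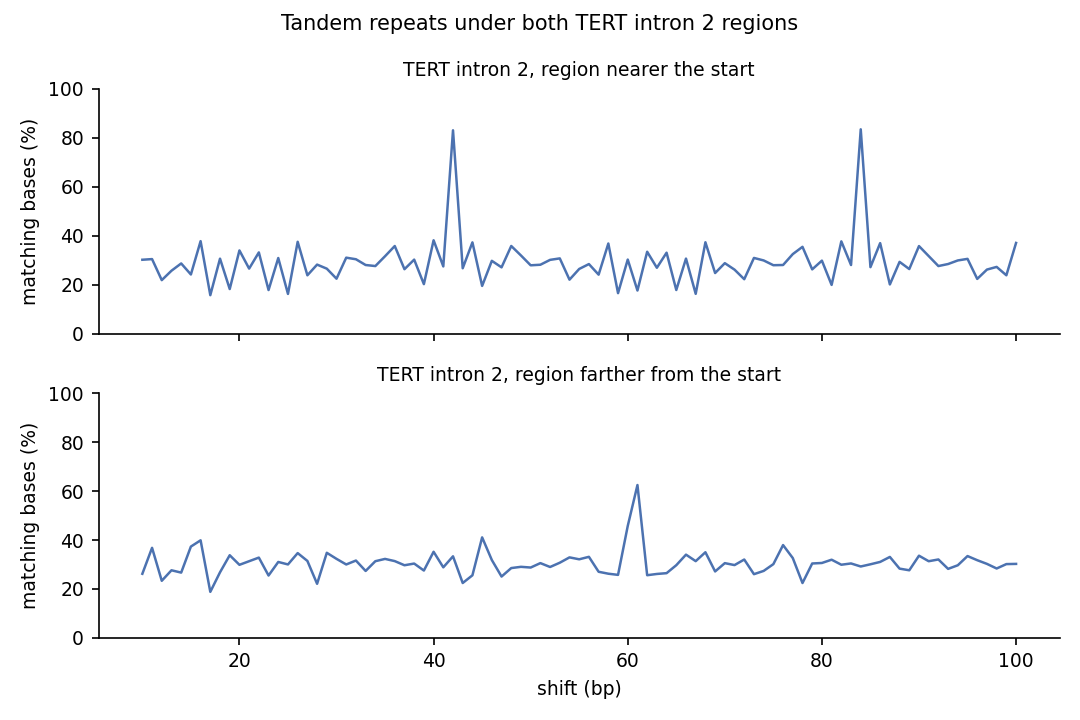
Percentage of bases that match when the sequence of each TERT intron 2 region is shifted against itself, for shifts of 10 to 100 bp. The region nearer to the start (top) peaks at 42 bp and at 84 bp, with 83.1% and 83.5% of bases matching, and the region farther in (bottom) peaks at 61 bp with 62.5%.

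TEP1 had the strongest distal region of the 10 genes per kb. The region at chr14:20376069-20376740, with 982 over 672 bp or 1462 per kb, was at the 98.3 percentile of distal regions. It lay inside TEP1 and covered 161 coding bp of exon 42, with its midpoint 3324 bp from the nearest annotated start. The second, chr14:20418384-20419058, had 698 over 675 bp, 1035 per kb, and lay 4883 bp upstream of the TEP1 gene body, at the 96.1 percentile.

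The 2 distal regions of NHP2 were close in level per kb, while in mean signal their order was reversed and they lay farther apart. The region at chr5:178145991-178147181 had 647 over 1191 bp, 544 per kb, and lay in RMND5B, a neighbouring ubiquitin ligase gene, where it overlapped an exon. The region at chr5:178164057-178164758 had 408 over 702 bp, 582 per kb, and lay in the noncoding gene ENSG00000289726. They stood at the 87.5 and 88.7 percentiles of distal regions. The former held the only match to the CTCF core among the 11 distal regions, and 6.08% of all distal regions held one. The match lay 403 bp from the centre of its region, and it is a match of letters and not a binding site. CTCF organises chromatin loops, and the match is shown for that reason (chr5:178146157-178146208, minus strand, hg38), with the core in capitals.
NHP2 distal CTCF core: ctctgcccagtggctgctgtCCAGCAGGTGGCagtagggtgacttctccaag

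Distal regions of the shelterin genes were fewer and mostly weaker. All but that of TERF2 lay more than 50 kb from the nearest start of their gene. TERF1 had a region of 705 per kb at chr8:72928986-72929590, from a mean signal of 426 over 605 bp, at the 91.8 percentile of distal regions. It lay 79573 bp from the TERF1 start inside KCNB2, a potassium channel gene, as did a weak region at chr8:72913013-72913325 with a mean signal of 27.8 and 89.0 per kb. TERF2 had one region in its own intron, chr16:69380526-69380913, with 111 over 388 bp, 287 per kb. POT1 had one in its own intron, chr7:124857862-124858032, with 9.72 over 171 bp, 56.9 per kb, 71855 bp from the nearest start.

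None of the 22 regions held 2 telomere repeats TTAGGG in tandem, and 43 of all regions did (0.0396%). A single TTAGGG on either strand occurred in 3 of the 22, the promoter regions of POT1 and NHP2 and a distal region of TERF1, and in 18.2% of all regions.

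The other telomere genes formed a list of 33, and all had a promoter region. Their median promoter level was 889 per kb, and 23 lay above and 10 below the median gene. In the telomerase particle and its maturation factors, 8 of 11 genes lay above the median gene, with a median of 995 per kb. The highest was RUVBL1, an ATPase of particle assembly, at 1878 per kb, and the lowest NAF1, an assembly factor, at 357 per kb, the lowest of all 33. In the CST complex, which fills in the complementary strand, and its polymerase partners, 3 of 5 lay above, with a median of 889 per kb. Among the tankyrases and the end-processing partners of shelterin, 10 of 11 lay above, with a median of 1151 per kb, and DCLRE1B, the Apollo nuclease, had the highest level of the list at 2384 per kb, from a region that was also the strongest promoter region of AP4B1. Among genes of telomeric chromatin and of alternative lengthening, 2 of 6 lay above, with a median of 518 per kb. DAXX, a histone chaperone, reached 1872 per kb in that group, while ZNF827 and SLX4, a zinc finger protein and a nuclease scaffold, had 405 and 402 per kb.

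**Figure D5:**
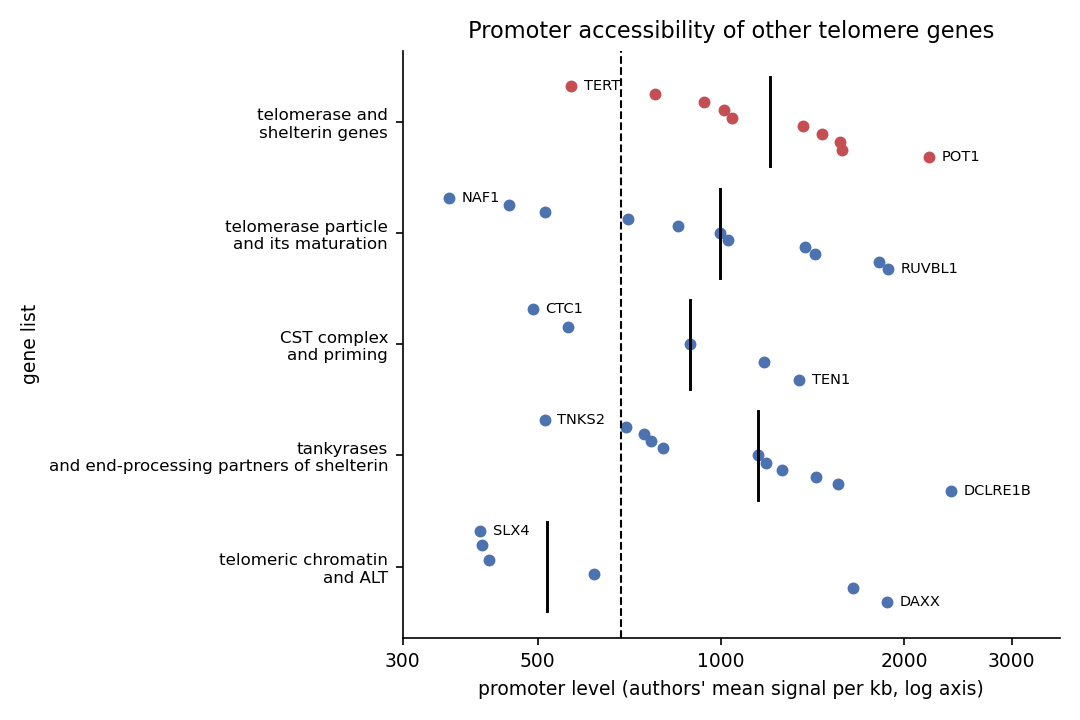
Promoter level (authors' mean signal per kb, log axis) of the 10 telomerase and shelterin genes in red and of 33 other telomere genes in blue, by list, with a black bar at each list's median and a dashed line at the median gene of 686 per kb. The names mark the lowest and highest gene of each list. The telomeric chromatin and ALT (alternative lengthening of telomeres) list has 4 of 6 genes to the left of the line.

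Marker genes of the labelled cell type mostly lay above the median gene. All 12 beta cell markers had a promoter region, as did 78.8% of protein-coding genes. Of the 12, 9 lay above the median gene, and the median of the 12 was 1466 per kb. ABCC8, SLC30A8 and IAPP lay below the median gene, at 589, 541 and 435 per kb. Other endocrine markers had 5 of 5 with a region but 0 above the median gene. Of the markers of other cell types, 4 of 6 acinar, 2 of 3 duct, 3 of 5 mesenchyme, 2 of 5 blood and 2 of 4 endothelial genes had a promoter region. Of these, CPA1, KRT19 and CD68 lay above the median gene, at 1298, 737 and 921 per kb. The share of other cells in the libraries was not tested.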

How the data were processed

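ATAC-seq had been run on 3 libraries labelled non-senescent and 3 labelled senescent, and the sources used here do not say whether they came from separate cultures. Per the study's methods, the authors trimmed reads with Trim Galore and Cutadapt, used Bowtie2 for alignment to hg38, discarded duplicates (Picard) and mitochondrial reads, shifted read ends for Tn5, found peaks with MACS2 and counted reads over the union of peaks with bedtools. The signal that the authors deposited is the DESeq2 mean over the 6 libraries of counts divided by size factors. A mean over both groups hides a region open in one group only. The same table holds 5 columns of the authors' own comparison of the groups (log2 fold change, its standard error, the test statistic and both p-values), which were not used, so no test between groups was made. The study's methods give a range of reads per library, but the table holds no depth for any one library, so no counting interval is given.

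Regions were joined to GENCODE 44 starts, read as intervals counted from 0 and printed counted from 1. Percentiles give the share of genes or regions with a lower level. Motifs were counted on both strands in hg38, and all 35116 RefSeq promoter sequences equalled the genome. Named genes were all 10 members, genes that shared their promoter regions, and the 3 highest and 3 lowest of the other telomere genes. The members and lists were chosen with earlier results of these data known. The CTCF core and the search for tandem repeats (shifts of 10 to 100 bp, a match of at least 50%) were chosen after seeing the values. The assignment, motif and repeat searches were tested on simulated data. Python 3.11.15, pandas 2.3.3, numpy 2.4.6 and matplotlib 3.10.9 were used.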

Additional observations from a re-analysis of the deposited data

How the results depend on the processing

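Of 15 alternative settings over the 5 summary values, 10 left the value within its limit (1.5 times for counts, the 95% Wilson interval for percentiles, 0.5% for levels) and 5 moved it. Counting starts of all genes, noncoding included, left 4 distal regions in place of 11. It gave 15 promoter regions in place of 11, which was within the limit for counts. Taking all promoter regions of a gene together gave a median promoter level of 1186 per kb in place of 1202. Dropping weak regions (mean signal under 50) raised the median distal level from 544 to 643 per kb. A limit of 50 kb left 8 of the 11 distal regions and gave 563 per kb. Without division by length, the median percentile of the promoter levels was 70.3 in place of 77.4, and all 10 members moved beyond their interval; with autosomes alone, 3 did. A promoter window of 0.5 kb left 10 promoter regions and all 10 genes with one. Leaving out replicates was not possible without values per library. No paired analysis was possible because each region has 1 mean over all libraries. The absent spread limits every order of levels given here, and the table does not give the depth of each library.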
